A study of Homo sapiens with 4 samples.

Results

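The collagen chain genes are the genes whose symbol is COL, a type number, A and a chain number, such as COL4A1. This rule, read from the symbols alone, found 44 of the 36601 genes listed in each matrix, and the 30 with at least 20 counts summed over the 4 libraries are described. The genes were followed in U-2 OS cells, an established human osteosarcoma line, by SORT-seq, in which cells are sorted singly into the wells of a plate and each captured RNA molecule is tagged near its 3′ end with a barcode for the cell and a unique molecular identifier (UMI). The UT group was left untreated, and the IR group received 4 Gy of ionizing radiation. The labels name no introduced allele and no other agent for either group. The time between irradiation and sorting is 48 h in the series design and the study's methods and 24 h in the treatment protocol. Each of 2 experiments gave 1 library per group, so that every comparison rests on 2 libraries against 2, written below as UT 1, UT 2, IR 1 and IR 2.

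Collagens are the main structural proteins of the extracellular matrix. Their chains are made in the endoplasmic reticulum, hydroxylated, wound together into helical molecules and secreted, after which fibrillar types assemble into the cross-striated fibrils of bone, tendon and skin and type IV chains form the sheet-like network of basement membranes. Other types sit on fibrils, form beaded filaments or short networks, anchor basement membranes, or span the cell membrane. Bone-forming cells are known for making type I collagen, whose fibrils are the organic scaffold of bone.

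After irradiation the transcripts of 4 of the 26 chains tested were called higher by edgeR, beside 1.63% of all genes tested. These were the basement membrane pair COL4A1 and COL4A2 (2.14-fold and 1.89-fold by the mean CPM of the groups), the fibrillar chain COL27A1 (2.52-fold) and the transmembrane chain COL17A1. COL17A1 went from 4 and 5 counts in the UT libraries to 44 and 66 in the IR libraries, and entered the test only through the IR libraries. Only the COL17A1 call did not depend on any single library, and only COL17A1 was also called in cells with few cell cycle transcripts. No chain fell past the test. The most abundant chain, COL1A1, held between 50.8% and 64.4% of all collagen counts and had a fold of 1.02. Together the 44 chains made up 0.269% to 0.411% of the gene counts of a library.

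The 3 promoter stretches of the called genes are shown so that the sequence around the shared start of the type IV pair can be set beside those of the other called chains. They are from RefSeq on GRCh38, the build of the files, and capitals mark CCAAT (or ATTGG, its other strand) and GGGCGG. COL4A1 and COL4A2 lie head to head on chromosome 13, with RefSeq starts 126 bases apart, and the first stretch holds 100 of the bases between them that no annotated exon covers. It spans chr13:110307158-110307257 and is written on the strand of COL4A2. The other stretches are the 150 bases before the start of COL17A1 (chr10:104085881-104086030, minus strand) and of COL27A1 (chr9:114155387-114155536, plus strand).
COL4A1-COL4A2: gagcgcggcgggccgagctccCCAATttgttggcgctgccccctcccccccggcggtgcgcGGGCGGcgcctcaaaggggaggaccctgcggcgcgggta
COL17A1: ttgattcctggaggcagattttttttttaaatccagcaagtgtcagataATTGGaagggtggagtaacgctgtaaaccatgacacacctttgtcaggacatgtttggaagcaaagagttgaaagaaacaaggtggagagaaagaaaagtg
COL27A1: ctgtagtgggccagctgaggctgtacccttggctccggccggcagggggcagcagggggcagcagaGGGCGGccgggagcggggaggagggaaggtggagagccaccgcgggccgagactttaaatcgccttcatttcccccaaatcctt
The stretches differ in base composition: the type IV stretch holds 14 CpG steps, that of COL27A1 holds 9 and that of COL17A1 holds 1. Over the 250 bases before each start in RefSeq and on both strands, CCAAT is found in 32.0% of 35116 promoters, GGGCGG in 42.6%, TATAAA in 10.7% and TGANTCA in 6.57%. The table holds 44 promoters of 32 collagen genes, of which 12 have CCAAT, 24 GGGCGG, 8 TATAAA and 1 TGANTCA. Of the called genes, both type IV promoters hold CCAAT and GGGCGG, that of COL17A1 holds CCAAT and TATAAA, and that of COL27A1 holds GGGCGG. A match is a description of the letters and not a site of binding.

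The libraries held 358 and 367 UT cells and 247 and 248 IR cells, with total gene counts between 5736339 and 6810079. The counts of a median cell were 15662 (UT 1), 17627 (UT 2), 20181 (IR 1) and 22035 (IR 2). Values are given as CPM, the counts of a gene scaled to the same total of gene counts in each library. The edgeR tests also apply TMM scaling factors of 0.964 (UT 1), 0.981 (UT 2), 1.02 (IR 1) and 1.03 (IR 2). CPM carries no such factor, so its ratios of IR over UT lie somewhat above those after TMM scaling. Each molecule is counted once at its 3′ end, so CPM is compared between chains without division by length. No gene exceeded 138 in any cell, and COL1A1, with a median of 25.1 to 48.3 counts per cell, is the chain closest to this ceiling. Its largest value in a cell of a library was 99.2 to 117. Whether the ceiling affects the COL1A1 fold, or the shares and sums that hold COL1A1, in the deeper IR cells was not tested. The summed level of 10 mesenchymal and osteoblast genes was 2976 and 3514 CPM in UT and 2950 and 3104 CPM in IR, almost wholly from VIM and SPARC. The defining osteoblast gene SP7 was at 0, and IBSP and TWIST1 held at most 2 counts in a library. This sum cannot tell U-2 OS from another mesenchymal line, and the identity of the cells is taken from the labels. The 12 markers of blood, endothelial, epithelial, cartilage and pigment cells summed to 24.2 and 27.6 CPM in UT and 21.3 and 26.8 CPM in IR, mostly EPCAM, with HBA1 and HBB at 0. Well barcodes were shared between libraries (173 to 350 per pair), since each plate uses the same set of primers.

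**Figure D1:**
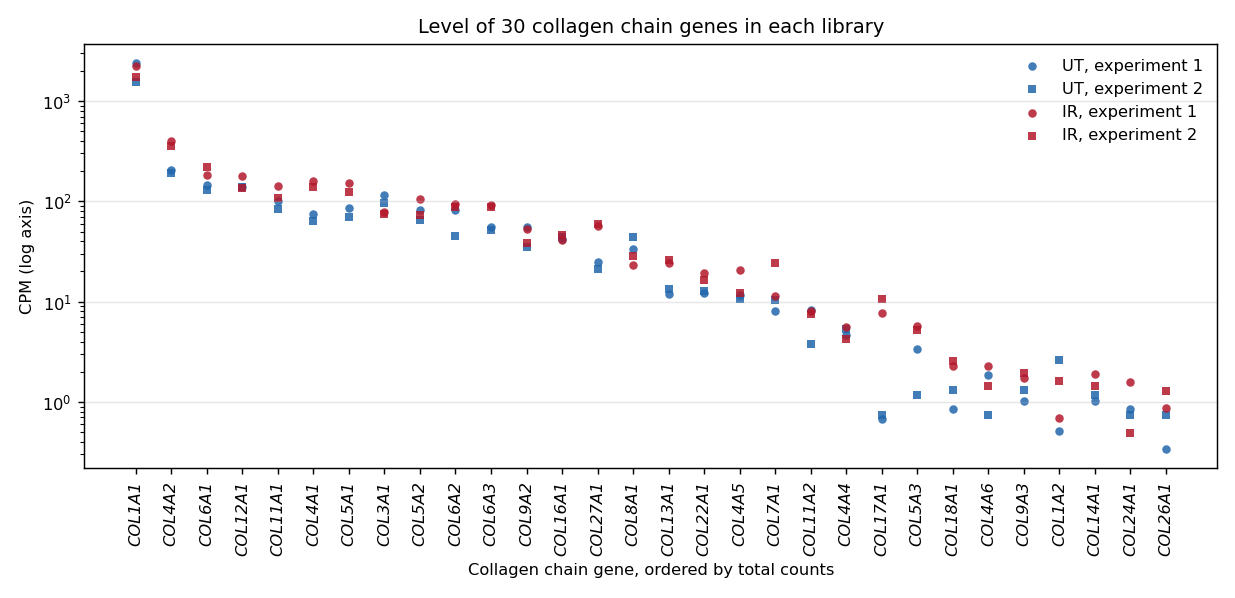
CPM (log axis) of the 30 collagen chain genes with at least 20 counts, ordered by total counts, in each library (blue UT, red IR; circles experiment 1, squares experiment 2). COL1A1 lies between 1537 and 2377 CPM, more than any other chain, and the IR points of COL17A1 lie at 7.67 and 10.7 CPM over UT points at 0.682 and 0.734 CPM.

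To ask which chains respond to irradiation, counts were summed over the cells of each library and compared with the edgeR quasi-likelihood test over 14647 genes. Of the 26 chains with enough counts to be tested, 4 were called higher in IR and 0 lower at an adjusted p under 0.05, where 1.63% of all genes tested were called higher and 0.847% lower. At an unadjusted p under 0.05 there were 9 higher and 2 lower, beside 10.2% and 8.25% of all genes. Of the 23 chains with an adjusted p by DESeq2, 4 were called higher and 0 lower, beside 2.21% and 1.55% of the genes it tested. With no filter on low counts, 8 of 41 chains were called higher and 1 lower, beside 3.57% and 2.24% of all genes. The experiment number in the titles pairs the libraries. With the experiment as a block, 12 chains were called higher and 2 lower, beside 14.3% and 12.9% of all genes. This fit has 1 residual degree of freedom, and its calls are given beside those without the block. Its small p-values lean on variance pooled over all genes and are not replicate evidence from the single gene. In CPM the 2 IR libraries were both above the 2 UT libraries for 16 of the 26 chains and both below for 2, against 30.7% and 18.5% of all genes tested. Irradiated against untreated cells, 18 chains were higher in both experiments, 2 were lower in both, and 6 had opposite directions. These directions were not counted over all genes, so they describe the chains alone. The median log2 fold change of the 26 chains was 0.46, and that of all genes tested was -0.00. COL17A1, COL18A1 and COL9A3, with 4 to 9 counts in each UT library, passed the filter on low counts only through their IR libraries. These 3 chains are among the 16 and the 18 and enter the median. Their place on the higher side was thus set in part by the filter, which all genes tested also passed.

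**Figure D2:**
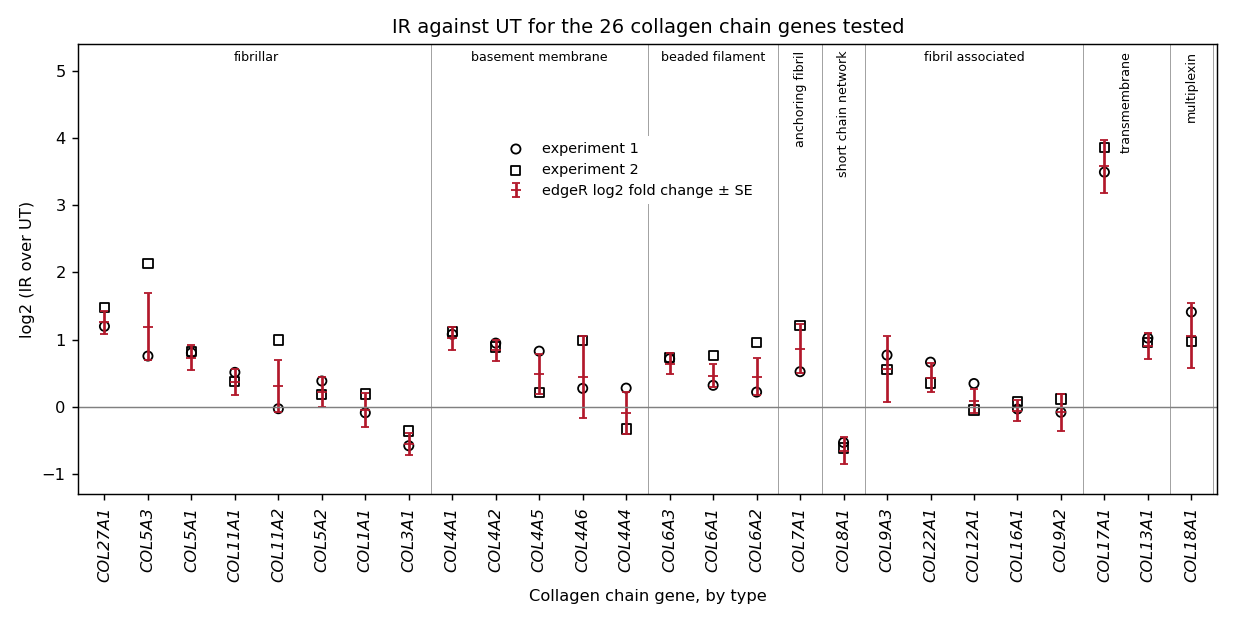
Log2 ratio of IR over UT for the 26 collagen chain genes tested, by type: open symbols are the ratio of CPM in each experiment, and red bars are the edgeR log2 fold change ± SE. COL17A1 stands at 3.58, the other called chains between 0.84 and 1.26, and COL3A1 and COL8A1 are below 0 in both experiments.

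The IR libraries also differed in cell cycle transcripts, read from 20 S phase and 23 G2/M phase genes. In cells thinned to 8000 UMIs, the median sum of these genes was 63 and 65 UMIs in the UT libraries against 27 and 29 in the IR libraries, and 39.9% and 38.5% of UT cells and 66.2% and 66.8% of IR cells were at or below 54 UMIs, the median of all cells. When only these cells were summed, an alternative added after the data were seen, 1 of 23 chains was called higher (COL17A1) and 0 lower, where 0.699% of all genes were called higher and 0.593% lower. The median log2 fold change of the chains was then 0.28. Values of single chains in these cells are given below as those of cells low in cycle genes.

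Among basement membrane chains, COL4A1 and COL4A2 encode the pair of chains that builds the type IV network of most basement membranes. COL4A1 (ENSG00000187498, chromosome 13, 110148963 to 110307157, minus strand in GENCODE 44) had 75.2 and 63.0 CPM in UT experiments 1 and 2 and 159 and 137 CPM in IR. COL4A2 (ENSG00000134871, chromosome 13, 110305812 to 110513209, plus strand) had 207 and 192 CPM in UT and 399 and 356 CPM in IR. For both chains the IR libraries were above the UT libraries without overlap and by close to the same ratio in each experiment (2.11 and 2.18 for COL4A1, 1.93 and 1.85 for COL4A2). The means were 69.1 ± 8.60 against 148 ± 15.1 CPM for COL4A1 (± SD over 2 libraries; log2 fold change 1.02, SE 0.17, edgeR adjusted p = 0.0389; 1.84e-13 with the block). For COL4A2 they were 199 ± 10.2 against 377 ± 29.97 CPM (log2 fold change 0.84, SE 0.16, edgeR adjusted p = 0.0471; 1.38e-12 with the block). Both calls were lost when single libraries were left out, COL4A1 without IR 1, UT 2 or IR 2 and COL4A2 whichever of the 4 was left out, with edgeR adjusted p up to 0.136 and 0.196. In cells low in cycle genes the log2 fold changes were 0.86 and 0.77 (edgeR adjusted p = 0.0636 and 0.0805).

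The other type IV chains were scarcer. COL4A5, a chain of the basement membranes of kidney and other tissues, had 11.6 and 10.6 CPM in UT and 20.6 and 12.3 CPM in IR. In CPM the IR libraries were above the UT libraries, but the gap in experiment 2 was small. Once the TMM factors are applied the groups overlap, and the gene was not called (log2 fold change 0.49, SE 0.30, edgeR adjusted p = 0.445). COL4A6, its head-to-head neighbour on the X chromosome, had 1.87 and 0.734 CPM in UT and 2.27 and 1.45 CPM in IR, with overlap between the groups. COL4A4 lay between 4.20 and 5.58 CPM in all 4 libraries, also with overlap, and COL4A3, its partner in kidney basement membranes, had 2 counts in all. Per COL4A1 count there were 2.75 (UT 1), 3.05 (UT 2), 2.51 (IR 1) and 2.59 (IR 2) COL4A2 counts, a ratio lower in IR in both experiments. The median log2 fold change of the 5 basement membrane chains tested was 0.49, with 2 called higher by edgeR, beside 1.63% of all genes tested.

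COL1A1, the major chain of type I collagen, was the most abundant fibrillar chain. It had 2377 and 1537 CPM in UT and 2234 and 1754 CPM in IR (chromosome 17, 50184101 to 50201632). The experiments differed more than the groups: IR was below UT in experiment 1 and above it in experiment 2. The mean was 1957 ± 594 CPM in UT and 1994 ± 339 in IR, and the edgeR log2 fold change was -0.05 with SE 0.25 (adjusted p = 0.947). COL1A2, which encodes the other chain of type I collagen, was nearly absent, with 3 (UT 1), 18 (UT 2), 4 (IR 1) and 10 (IR 2) counts. There were between 582 and 4650 COL1A1 counts per COL1A2 count, and COL1A2 was too low to be tested.

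COL27A1, a fibrillar chain known from cartilage, rose. It had 24.7 and 21.2 CPM in UT and 56.7 and 59.0 CPM in IR (ENSG00000196739, chromosome 9, 114155537 to 114312511, plus strand). Both IR libraries were far above either UT library, with folds of 2.29 and 2.79 in the experiments. The edgeR log2 fold change was 1.26 with SE 0.17 (adjusted p = 0.0248; 5.15e-12 with the block). The adjusted p by edgeR was 0.0526 without IR 1 and at most 0.0497 without any other library, and 0.0528 in cells low in cycle genes, where the log2 fold change was 1.16.

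The type V chains, minor partners that start and size type I fibrils, were higher in IR to different degrees. COL5A1 had 86.4 and 70.3 CPM in UT and 151 and 124 CPM in IR. The groups did not overlap and the ratios were 1.74 and 1.76. COL5A1 was not called without the block (log2 fold change 0.73, SE 0.19, edgeR adjusted p = 0.0945) and was called with it (1.82e-08). COL5A2 had 81.1 and 64.5 CPM in UT and 106 and 73.4 CPM in IR, with overlap between the groups, and passed neither test (edgeR adjusted p = 0.681; 0.161 with the block). COL5A1 counts stood at 1.07 and 1.09 per COL5A2 count in UT and at 1.42 and 1.69 in IR. COL5A3, a rarer type V chain, had 3.41 and 1.17 CPM in UT and 5.75 and 5.17 CPM in IR, and was called only with the block (log2 fold change 1.19, SE 0.50, edgeR adjusted p = 0.266; 0.00659 with the block).

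COL3A1, whose product mixes with type I collagen in stretchable tissues such as skin and vessels, lay in the opposite direction. It had 116 and 95.6 CPM in UT and 77.8 and 74.5 CPM in IR. Both IR libraries were below both UT libraries. The log2 fold change was -0.56 with SE 0.17 (edgeR adjusted p = 0.140), and the gene was called lower with the block (adjusted p = 3.24e-05). COL5A2 lies beside COL3A1 on chromosome 2, at 189031898 to 189225312 after 188974373 to 189012746. The log2 fold change of COL5A2 was 0.22 with SE 0.23 and its groups overlapped, so its direction was not settled.

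The type XI chains build thin fibrils with type II collagen in cartilage. COL11A1 had 100 and 84.0 CPM in UT and 143 and 109 CPM in IR, without overlap (log2 fold change 0.37, SE 0.20, edgeR adjusted p = 0.378; 0.00454 with the block). COL11A2 had 8.18 and 3.82 CPM in UT and 8.02 and 7.60 CPM in IR, and the groups overlapped (edgeR adjusted p = 0.747). COL2A1, the type II chain itself, had 8 counts in all. Of the 8 fibrillar chains tested, 1 was called higher and 0 lower by edgeR, beside 1.63% and 0.847% of all genes. At an unadjusted p under 0.05, 3 were higher and 1 lower, where all genes gave 10.2% and 8.25%. With the block 4 were higher (COL27A1, COL5A1, COL5A3 and COL11A1) and 1 lower (COL3A1), beside 14.3% and 12.9% of all genes. Their median log2 fold change was 0.34.

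The transmembrane chain COL17A1 had the largest fold change of the tested chains. Its product spans the membrane of epithelial cells at hemidesmosomes, where it helps to fix the cell to the basement membrane. It had 0.682 and 0.734 CPM in UT and 7.67 and 10.7 CPM in IR (ENSG00000065618, chromosome 10, 104031286 to 104085880, minus strand). The UT libraries held 4 and 5 counts, so the size of the fold is loosely set, but each IR library was far above either UT library. The gene passed the filter on low counts only through its IR libraries. The mean was 0.708 ± 0.0372 CPM in UT and 9.17 ± 2.12 CPM in IR, with folds of 11.3 and 14.5 in the experiments. The edgeR log2 fold change was 3.58 with SE 0.39 (adjusted p = 0.0176; 6.38e-12 with the block). The call held without each library in turn (edgeR adjusted p from 0.0124 to 0.0279) and in cells low in cycle genes (log2 fold change 3.57, edgeR adjusted p = 0.0422). KRT5, a keratin of the basal epithelial cells in which COL17A1 is known, had at most 5 counts in a library. Of the other epithelial markers, CDH1 had 5 to 11 counts in a library and EPCAM 78 to 105. EPCAM stood at 17.2 and 15.4 CPM in UT and 13.6 and 14.1 CPM in IR.

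COL13A1, another membrane-spanning chain, known from neuromuscular junctions, had 11.9 and 13.4 CPM in UT and 24.2 and 26.02 CPM in IR. The groups were well apart, with ratios of 2.03 and 1.95. The edgeR adjusted p was 0.0634 (log2 fold change 0.91, SE 0.19), and 3.09e-05 with the block. In cells low in cycle genes the log2 fold change was 1.32 (edgeR adjusted p = 0.0512). COL23A1, of the same class, was at 0 in every library, and COL25A1 had 8 counts in all.

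The type VI chains COL6A1, COL6A2 and COL6A3 together make the beaded filaments that surround many cells. COL6A1 had 147 and 129 CPM in UT and 183 and 219 CPM in IR (log2 fold change 0.47, SE 0.17, edgeR adjusted p = 0.196; 0.000192 with the block). COL6A2 had 81.6 and 45.5 CPM in UT and 95.02 and 88.3 CPM in IR (log2 fold change 0.45, SE 0.28, edgeR adjusted p = 0.454; 0.00711 with the block). COL6A3 had 55.9 and 52.3 CPM in UT and 91.8 and 86.9 CPM in IR (log2 fold change 0.64, SE 0.15, edgeR adjusted p = 0.0829; 4.61e-06 with the block). For all 3 chains the IR libraries were above the UT libraries without overlap, and the low COL6A2 level of UT 2 set most of the spread of that chain. None was called without the block and all 3 were called higher with it, where 14.3% of all genes were called higher and 12.9% lower. COL6A5 was at 0 and COL6A6 had 1 count.

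COL7A1, the chain of the anchoring fibrils under the skin's basement membrane, had 8.01 and 10.4 CPM in UT and 11.5 and 24.1 CPM in IR. The IR libraries were above the UT libraries but IR 1 only narrowly (log2 fold change 0.87, SE 0.37, edgeR adjusted p = 0.277; 0.00106 with the block). COL8A1, a chain of short networks in vessels and cornea, had 33.7 and 43.8 CPM in UT and 23.4 and 28.6 CPM in IR. Both IR libraries were below both UT libraries, and the gene was called lower with the block only (log2 fold change -0.66, SE 0.20, edgeR adjusted p = 0.145; 0.000228 with the block).

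The chains that decorate fibrils gave no call. COL12A1, found along type I fibrils, had 140 and 140 CPM in UT and 178 and 136 CPM in IR, with overlap. COL16A1, another of this class, stayed between 41.1 and 46.4 CPM in all 4 libraries. COL9A2, a chain of the type IX collagen of cartilage, had 55.6 and 35.2 CPM in UT and 52.5 and 38.2 CPM in IR, so that it followed the experiment rather than the group. COL22A1, known from tissue junctions, had 12.1 and 12.8 CPM in UT and 19.2 and 16.3 CPM in IR without overlap (log2 fold change 0.43, SE 0.22, edgeR adjusted p = 0.348). Of the 5 tested, 0 were called by edgeR with or without the block and 0 had an unadjusted p under 0.05. Over all genes edgeR called 1.63% higher and 0.847% lower, and 14.3% and 12.9% with the block. DESeq2 called 0 and gave no adjusted p for COL9A3. The median log2 fold change of the 5 chains was 0.08.

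The remaining chains were near the limit of detection. COL18A1, COL4A6 and COL9A3 had 37 to 43 counts in all and were not called (edgeR adjusted p from 0.311 to 0.770). The last 1000 bases of COL18A1 and COL9A3 overlap exons of SLC19A1 and TCFL5, respectively, on the other strand. The handling of strand in the counting is not given in the sources used here. COL1A2, COL14A1, COL24A1 and COL26A1 reached 20 counts but were too low for the test. COL24A1 (22 counts) and COL26A1 (20) were just inside the limit of 20 and COL15A1 (18) and COL19A1 (13) just outside. Of the 14 chains outside it, 3 had no count in any library (COL23A1, COL9A1 and COL6A5), where the upper limit is 3 counts in each.

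Summed by type, basement membrane chains stood at 300.004 and 272 CPM in UT and 586 and 512 CPM in IR. Both IR libraries were above both UT libraries, with ratios of 1.95 and 1.88. Fibrillar chains, mostly COL1A1, stood at 2799 and 1882 CPM in UT and 2785 and 2209 CPM in IR, with overlap and ratios of 0.995 and 1.17. Without COL1A1 they stood at 422 and 345 CPM in UT and 550 and 455 CPM in IR, with no overlap and ratios of 1.30 and 1.32. All other types summed to 593 and 535 CPM in UT and 737 and 732 CPM in IR, again without overlap. Basement membrane counts per fibrillar count stood at 0.107 (UT 1) and 0.144 (UT 2) against 0.210 (IR 1) and 0.232 (IR 2), and without COL1A1 at 0.711 and 0.789 against 1.06 and 1.12. These sums over chosen genes were not tested.

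**Figure D3:**
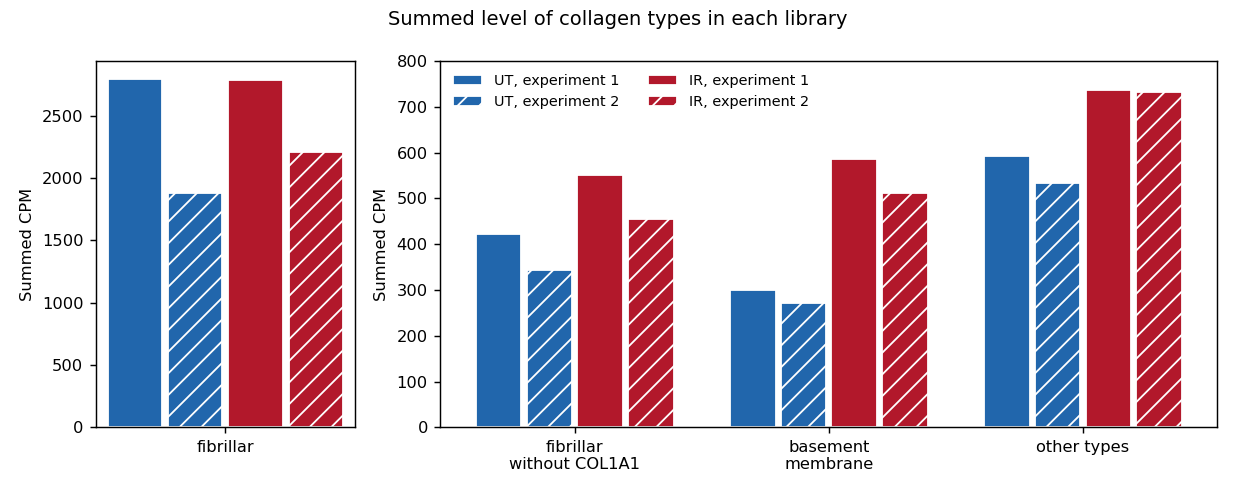
Summed CPM of the fibrillar chains (left) and of fibrillar chains without COL1A1, basement membrane chains and all other chains (right) in each library (blue UT, red IR; hatched bars experiment 2; each bar is 1 library). Basement membrane chains lie at 300.004 and 272 CPM in UT and 586 and 512 CPM in IR, while fibrillar chains overlap between the groups.

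To see in how many cells each chain was found, every cell was thinned to 8000 UMIs, which left 333 and 356 UT cells and 231 and 232 IR cells and left out between 11 and 25 per library. COL4A1 was found in 38.4% of the cells of UT 1 (95% interval by the exact binomial method 33.2 to 43.9) and 31.7% of UT 2 (26.9 to 36.9), against 56.7% of IR 1 (50.1 to 63.2) and 58.2% of IR 2 (51.6 to 64.6). Without thinning it was found in 56.98% and 56.1% of UT cells and 75.7% and 79.03% of IR cells. The intervals cover counting error only, and the shares, with 1 library per group in each experiment, were not tested. COL4A2 was found in 71.2% and 67.4% of UT cells and 82.3% and 78.0% of IR cells (84.6%, 83.9%, 93.1% and 91.5% unthinned). Both chains were found together in 33.3% and 26.7% of UT cells and 51.1% and 52.2% of IR cells.

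COL27A1 was found in 15.3% (11.6 to 19.6) of the cells of UT 1 and 15.2% (11.6 to 19.3) of UT 2, against 28.6% (22.8 to 34.9) of IR 1 and 31.03% (25.1 to 37.4) of IR 2, and unthinned in 32.1% and 28.3% against 55.1% and 58.9%. COL13A1 was found in 8.71% and 7.30% of UT cells and in 17.3% and 19.0% of IR cells (15.9%, 19.9%, 37.2% and 34.3% unthinned). COL17A1 was found in a small share of cells: 0.601% (0.0728 to 2.15) and 0.843% (0.174 to 2.44) in UT and 4.33% (2.10 to 7.82) and 9.48% (6.04 to 14.0) in IR. Unthinned, it was found in 0.838% and 1.36% of UT cells and 13.4% and 18.5% of IR cells. In this single line no cell type lacks these genes by definition, so markers of other lineages served as background: HBB was found in no cell, KRT5 in at most 0.843%, PTPRC in 0.601% to 4.31% and EPCAM in 7.33% to 12.9% of cells of a library. The UT shares of COL17A1 were no higher than those of PTPRC and are read as background. In IR 1 PTPRC was found in 0.866% (0.105 to 3.09) and in IR 2 in 4.31% (2.09 to 7.78) of cells, and these counting intervals overlap those of COL17A1 in the same libraries, although its shares were higher in both.

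COL3A1 was found in 43.8% and 41.0% of UT cells and 34.2% and 33.6% of IR cells, and its unthinned shares were 57.8% (UT 1), 57.8% (UT 2), 48.99% (IR 1) and 58.5% (IR 2). The thinned order of the groups is thus lower in IR in both experiments, and the unthinned order is so in experiment 1 alone. COL1A1 was found in 99.6% to 100% of thinned cells in every library, with a median of 18 and 12 UMIs in UT and 18 and 14 in IR and a maximum of 81. COL1A2 was found in 0.601% and 2.53% of UT cells and 0.866% and 2.16% of IR cells. A median cell had 7 different chains in both UT libraries and 8 in both IR libraries, with 28 and 20 collagen UMIs in UT and 31 and 27 in IR.

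**Figure D4:**
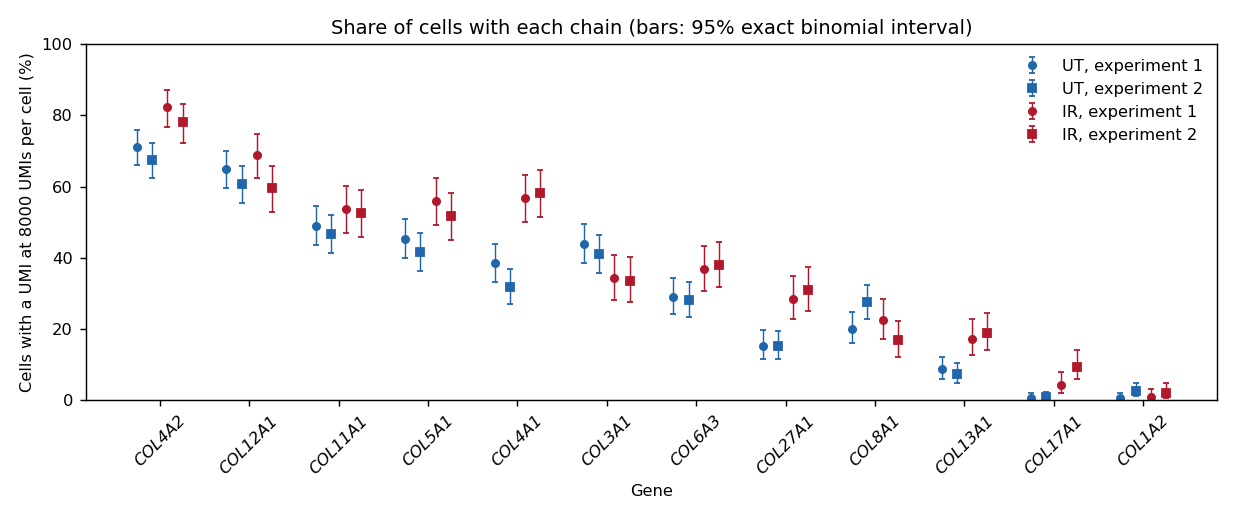
Share of cells (%) with a UMI of 12 collagen chains after thinning to 8000 UMIs per cell, in each library (blue UT, red IR; circles experiment 1, squares experiment 2; bars are 95% exact binomial intervals, for counting error only). COL4A1 lies at 38.4% and 31.7% in UT and 56.7% and 58.2% in IR, and COL3A1 at 43.8% and 41.0% in UT and 34.2% and 33.6% in IR.

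Across cells, the chains with a mean of at least 0.3 UMIs in the thinned cells (13 chains, 78 pairs) were compared within each library by Spearman's rho, as a description over 231 to 356 cells that share a library and a fixed depth. The pair with the highest mean was COL4A1 with COL4A2, at 0.32 and 0.28 in UT and 0.49 and 0.41 in IR. Next came COL4A2 with COL1A1 (0.23 to 0.34) and COL11A1 with COL1A1 (0.23 to 0.29). Most pairs were weakly related in these sparse counts, and the lowest mean was that of COL6A3 with COL12A1 (-0.10). COL5A1 was lower in cells with more G2/M transcripts in every library (rho from -0.32 to -0.19). Most other chains shared this sign in every library, such as COL1A1 (-0.21 to -0.10), COL4A1 (-0.20 to -0.087) and COL4A2 (-0.19 to -0.080). For COL16A1 and COL6A3 the sign varied, and COL12A1 had a positive rho in every library (0.013 to 0.11). COL1A1 was lower in cells with more counts before thinning (rho from -0.29 to -0.21), and whether the count ceiling has a part in this relation was not tested.

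**Figure D5:**
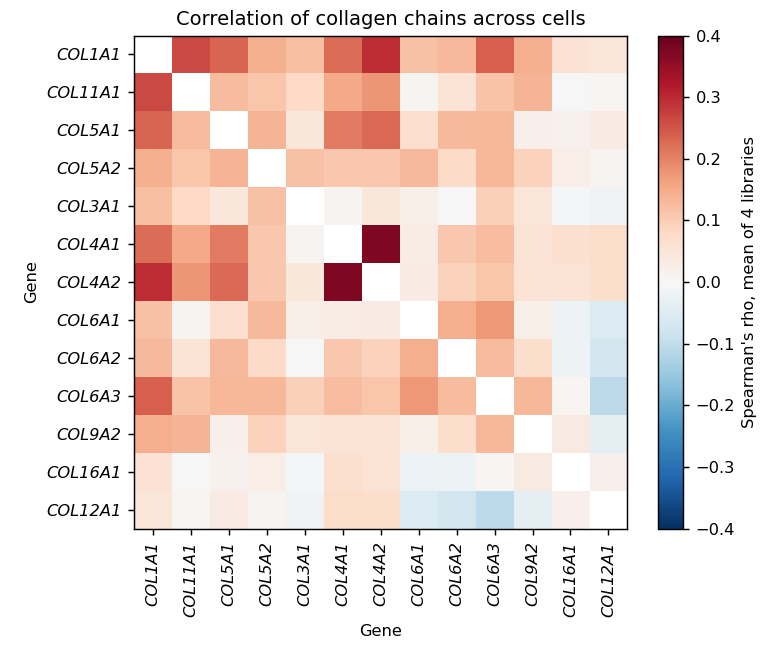
Spearman's rho across cells between 13 collagen chains, as the mean of the 4 libraries (colour scale from -0.4 to 0.4; the diagonal is blank). The darkest square is COL4A1 with COL4A2, at a mean of 0.37, and the lowest is COL6A3 with COL12A1, at -0.10.

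The genes that build, process and bind collagens were read from the same fit, in lists chosen by function. Over all genes tested, edgeR called 1.63% higher and 0.847% lower, and 14.3% and 12.9% with the block. At an unadjusted p under 0.05 the shares were 10.2% and 8.25%, and by DESeq2 2.21% and 1.55%. Of 21 tested genes for modification and folding in the endoplasmic reticulum, 0 were called in either direction by edgeR. DESeq2 gave an adjusted p for 20 and called 0. At an unadjusted p under 0.05 by edgeR 1 was higher, and 7 were called higher with the block. PLOD2, a lysyl hydroxylase, had 90.8 and 103 CPM in UT and 143 and 121 CPM in IR (edgeR adjusted p = 0.289; 0.00520 with the block). CRTAP, a member of the prolyl hydroxylation complex, had 454 and 371 CPM in UT and 639 and 466 CPM in IR (edgeR adjusted p = 0.450; 0.00169 with the block). FKBP14, an isomerase that folds collagen, had 69.7 and 80.2 CPM in UT and 97.8 and 112 CPM in IR (edgeR adjusted p = 0.239; 0.00215 with the block), while P4HA2, a prolyl hydroxylase subunit, was called by neither (0.467 and 0.0777). The other 4 called with the block were P4HB, PLOD3, PPIB and CREB3L1.

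Of 13 tested genes for processing and cross-linking outside the cell, 0 were called by edgeR, and of the 11 with an adjusted p by DESeq2, 0. At an unadjusted p under 0.05, 2 were higher and 1 lower, beside 10.2% and 8.25% of all genes. With the block, 4 were called higher and 2 lower, beside 14.3% and 12.9% of all genes. PXDN, the peroxidase that cross-links type IV collagen, had 206 and 164 CPM in UT and 349 and 267 CPM in IR without overlap (log2 fold change 0.66, SE 0.20, edgeR adjusted p = 0.145; 1.09e-08 with the block). The propeptidase gene ADAMTS3 had 21.6 and 26.1 CPM in UT and 15.7 and 16.3 CPM in IR, and the lysyl oxidase gene LOXL1 had 63.2 and 78.6 CPM in UT and 48.99 and 61.4 CPM in IR. Both were lower without overlap and called with the block only (edgeR adjusted p = 0.134 and 0.279; 0.00205 and 0.00250 with the block). The other genes called higher with the block were PCOLCE2, an enhancer of propeptide removal (log2 fold change 0.52, SE 0.18, edgeR adjusted p = 0.188; 0.00108 with the block), LOXL2 and BMP1.

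Of 8 tested collagen receptors, 1 was called higher and 0 lower by edgeR, beside 1.63% and 0.847% of all genes. DESeq2 also called 1 higher and 0 lower, of 7 with an adjusted p, and at an unadjusted p under 0.05 by edgeR, 2 were higher and 1 lower. ITGA2, the subunit that pairs with ITGB1 in a collagen-binding integrin, had 60.9 and 64.6 CPM in UT and 150 and 162 CPM in IR. The groups lay far apart (log2 fold change 1.23, SE 0.15, edgeR adjusted p = 0.0200), and the call held without each library in turn (at most 0.0395). With the block, ITGA1 and MRC2 were also called higher and GP6 lower, where 14.3% of all genes were called higher and 12.9% lower. ITGA1, an integrin subunit that favours type IV collagen, had 9.37 and 9.25 CPM in UT and 16.7 and 14.1 CPM in IR (edgeR adjusted p = 0.196; 0.0167 with the block). GP6, known as a platelet collagen receptor, had 32.0 and 27.0 CPM in UT and 21.6 and 15.5 CPM in IR (edgeR adjusted p = 0.143; 0.000126 with the block). ITGA10, another collagen-binding subunit, stayed under 2 CPM and was not called.

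Of 14 tested laminins and other partners of type IV collagen in basement membranes, edgeR called 2 higher and 0 lower, beside 1.63% and 0.847% of all genes. DESeq2 called 3 higher and 0 lower, and at an unadjusted p under 0.05, 4 were higher and 1 lower. LAMA1, a laminin alpha chain best known from embryonic basement membranes, had 46.9 and 30.2 CPM in UT and 140 and 107 CPM in IR, without overlap (log2 fold change 1.60, SE 0.26, edgeR adjusted p = 0.0370). Its adjusted p by edgeR was 0.0759 without IR 1 and 0.0717 in cells low in cycle genes. LAMB3, a laminin chain of hemidesmosome contacts, had 92.2 and 78.9 CPM in UT and 177 and 155 CPM in IR (log2 fold change 0.88, SE 0.17, edgeR adjusted p = 0.0488), and lost the call whichever library was left out (at most 0.187), with equal numbers of cells (0.0527) and in cells low in cycle genes (0.123). With the block 6 were called higher and 1 lower, where 14.3% of all genes were called higher and 12.9% lower. LAMA4, a laminin chain of vessels, had 8.86 and 5.43 CPM in UT and 3.66 and 1.45 CPM in IR and was the gene called lower with the block (edgeR adjusted p = 0.152; 7.63e-05 with the block). The median log2 fold change of this list was 0.36, beside -0.00 over all genes.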

How the data were processed

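U-2 OS cells were profiled by SORT-seq in 4 libraries, UT and IR in each of 2 experiments, grouped by their titles. The authors mapped reads to GRCh38 with STARsolo, without intronic or multi-gene reads and without a UMI minimum; the submitters' notes also name Seurat 5. The deposited matrices hold expected counts, in which observed UMIs were corrected by the authors for collisions among 4096 UMI sequences (99.9% of values in each library lay on this correction within rounding to 3 significant digits). Plain counts had been assumed, so sums were rounded for the count tests. Neither the strand rule nor the barcode filter is given in the sources used here. Spike-ins (0.191% to 1.21% of counts) were left out, and all deposited barcodes were kept. No doublet caller was run; the deepest cell of a library had 2.52 to 4.61 times its median counts.

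Counts were summed per library and tested in edgeR (version 4.0.16, R 4.3.3) by a robust quasi-likelihood F test after filterByExpr and TMM scaling (two-sided, Benjamini-Hochberg over all genes tested, threshold 0.05), with group as the only term. SE is the log2 fold change over the square root of F. With 2 libraries per group, p-values rest on the spread between these libraries alone. The fit draws the variance of each gene toward that of all genes, so p-values also rest on this pooled variance. Libraries of the same experiment deviated together (correlation 0.635 across genes), and the titles mark a shared experiment. The common biological coefficient of variation fell from 0.177 to 0.0727 when the block was added. DESeq2 1.42.0, RLE factors, no filter, equal cells (247 per library), leaving out genes whose mean per cell reached 20, observed UMIs and leaving out each library were alternatives. The edgeR script was tested on simulated data. Cells were thinned to 8000 UMIs with fixed seeds. The members, gene lists and alternatives were chosen with earlier results of these data known. Values in every library are given for chains with a mean of at least 5 CPM or called in either fit and for their partners, and from each pathway list for up to 4 genes by p plus any called, except 1 gene that is not reported here. 1 listed gene symbol was not found in the files. Positions are from GENCODE 44 and sequences from RefSeq.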

Additional observations from a re-analysis of the deposited data

How the results depend on the processing

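Chains called higher numbered 12 with the replicate block, 8 with no filter on low counts, 1 in cells low in cycle genes and 1 to 3 without single libraries, against 4. Chains called lower numbered 2 with the block (COL3A1 and COL8A1) and 1 with no filter (COL8A1), against 0, and 0 without any single library. Genes called in all were 3977 with the block, 1513 with no filter, 170 in cells low in cycle genes and 123 to 256 without single libraries, against 363. DESeq2, RLE factors, equal cells, observed UMIs and leaving out the 156 genes near the count ceiling each gave 4 chains higher and 0 lower. With the block, the lists gave 7 higher for biosynthesis, 4 higher and 2 lower for processing, 3 higher and 1 lower for receptors, and 6 higher and 1 lower for basement membrane partners. Of all genes tested, 14.3% were called higher and 12.9% lower with the block. Without single libraries the partners gave 0 to 2 higher and the receptors 1, and the other lists 0.

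Among the chains described one by one, directions turned for 8, called in no fit with all 4 libraries. Without single libraries, the log2 fold change ranged from -0.34 to 0.31 for COL1A1 (0.31 without UT 1, 0.12 without IR 2), from -0.39 to 0.29 for COL9A2 (0.29 without UT 1, 0.14 without IR 2), from -0.14 to 0.27 for COL12A1, from -0.079 to 0.47 for COL5A2, from -0.14 to 0.017 for COL16A1, from -0.16 to 0.96 for COL11A2, from -0.32 to 0.10 for COL4A4 and from -0.11 to 1.25 for COL4A6. The cause was not tested.

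The log2 ratio of IR over UT of summed fibrillar CPM was 0.09, moved to 0.39 without COL1A1 and ranged from -0.16 to 0.41 without single libraries. For basement membrane chains it was 0.94, with 0.86 on TMM-scaled CPM, 0.99 without COL4A2, 0.90 as a mean over cells and 0.84 to 1.03 without single libraries. The difference in the share of cells, IR minus UT in percentage points at 8000 UMIs, was 6.18 for COL17A1 (1.49 at 4000 UMIs and 14.9 unthinned), 14.6 for COL27A1 (11.9 and 26.7), 22.4 for COL4A1 (11.03 at 4000 UMIs), 10.8 for COL4A2 (18.2 and 8.04) and -8.52 for COL3A1 (-4.07 unthinned). Unthinned shares were added after the data were seen and carry the greater depth of IR cells. With 2 libraries a group and 2 residual degrees of freedom (1 with the block), a chain that was not called is not shown to be unchanged, and below about 40 counts in all chains could hardly be measured.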
